A study of Mus musculus with 6 samples.

Results

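Perineurial cells of the mouse sciatic nerve were selected as barcodes in which at least 3 of 7 genes had 1 or more unique molecular identifiers (UMIs): Slc2a1, Cldn1, Msln, Lypd2, Itgb4, Krt19 and Tenm2. Barcodes also had to lack UMIs of Sox10, a Schwann lineage factor, Cdh5, an endothelial cadherin, and Csf1r, a macrophage receptor. This gate held 3341 of the 41046 barcodes that passed the filters in the libraries of postnatal days 7, 14, 28 and 60 (P7 to P60), out of 56812 passing barcodes in the whole series. It held 101 cells at P7 (0.90% of passing barcodes, exact interval 0.734% to 1.09%), 392 at P14 (4.34%, 3.93% to 4.78%), 2627 at P28 (19.3%, 18.7% to 19.99%) and 221 at P60 (3.07%, 2.69% to 3.50%). Intervals here and below are at 95%, and they cover counting error and not the spread between animals.

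The perineurium is the sleeve of flattened, tight-junction-bound cells around each nerve fascicle, coated with basement membrane, that together with the endoneurial vessels forms the blood-nerve barrier. Its cells take up glucose through the transporter encoded by Slc2a1 and seal their contacts with claudins such as Cldn1. In the developing nerve, Desert hedgehog made by Schwann cells acts on mesenchymal cells that carry the receptor Ptch1, and its loss is known to leave the sheath thin and leaky.

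All animals were C57BL/6 mice, for which the labels name no altered allele and no treatment, and each age was 1 single-cell RNA library. The P7 library pooled 21 animals (10 male, 11 female), P14 pooled 18 (10 and 8), P28 pooled 15 (9 and 6) and P60 pooled 13 (5 and 8). Nerves were dissociated with enzymes, and red and dead cells were removed. The labels describe the samples as glia or Schwann cells and name no perineurial cell, so the name used here rests on the 7 genes and on the levels given below.

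The 4 libraries held between 60763221 and 101441907 UMIs. Software generation differed, with Cell Ranger 7.0.0 at P7 and 5.0.1 at the later ages, so a difference between P7 and a later age cannot be told apart from that change. Xist, transcribed in female cells, was at 894 CPM at P7 (CPM are the UMIs of a gene per 1000000 UMIs of the summed cells) and 479 at P14 but at 0.515 at P28 and 0.275 at P60, although the labels list 6 and 8 female animals there. In the order of ages, 75.2%, 47.2%, 0.114% and 0% (0 of 221) of gated cells had an Xist UMI. Xist thus went with age and against the labels, so that age and the sex of the animals cannot be told apart in any difference between P7 or P14 and the later ages. Any pair of these libraries shared 16 to 40 barcodes, of which 0 were gated in both.

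The cells were chosen by the detection of the 7 gate genes and the absence of Sox10, Cdh5 and Csf1r, so the values of these genes are a description. Itgb4, the integrin of hemidesmosomes, was detected in 80.2%, 83.7%, 85.0% and 87.8% of gated cells from P7 to P60, and Cldn1 in 96.0%, 86.5%, 77.9% and 86.4%. The least often detected were Krt19 (36.6%, 51.8%, 42.2% and 48.0%) and Msln (36.6%, 55.1%, 58.8% and 44.3%). Summed over the 7 genes, gated cells reached 1582, 3859, 3964 and 3671 CPM, against 123, 222, 222 and 162 CPM in cells with a Pdgfra UMI and 0 to 2 gate genes, the comparison class used throughout (956, 154, 2594 and 1910 cells, with the same 3 genes excluded). This class marks mesenchymal cells of the nerve, and Pdgfra itself was detected in 70.3%, 56.9%, 44.6% and 41.2% of gated cells. Median depth was 7296, 4844, 2846 and 4375 UMIs in gated cells and 9274, 6413, 7152 and 9950 in Pdgfra cells.

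Just inside the threshold, cells with 3 gate genes had Sfrp5, a secreted Wnt antagonist outside the rule, at 91.9, 296, 641 and 134 CPM from P7 to P60. Just outside it, cells with 2 gate genes had Sfrp5 at 16.6, 266, 214 and 50.1 CPM, and cells with 4 had it at 339, 592, 1616 and 2037 CPM. At P60 the step lay between 3 and 4 genes: 55 cells had 3, with a median of 9251 UMIs and a Pdgfra UMI in 70.9%, and 40 cells had 4, with 2580 UMIs and 30.0%.

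Markers of other cell types, summed over lists of 5 to 8 genes, show what else the gate could hold. Myelin genes summed to 13025, 889, 886 and 339 CPM in gated cells and 8138, 1108, 584 and 302 CPM in Pdgfra cells, and Schwann genes to 796, 227, 342 and 301 CPM against 700, 287, 388 and 266 CPM. Endothelial genes (21.3 to 137 CPM), macrophage genes (21.5 to 64.3 CPM) and T cell genes (3.79 to 8.99 CPM) were low in gated cells at every age. Of 8 endothelial markers, 4, 1, 1 and 2 had no UMI in the gated cells of P7 to P60. These counts include Cdh5, which is at 0 by the rule, as is any excluded gene in a list. In the wider gate defined below, which allows Cdh5 and excludes Pecam1, endothelial genes summed to 234, 433, 234 and 288 CPM. Mural genes summed to 362, 979, 617 and 782 CPM against 343, 880, 317 and 316 CPM. Genes of epineurial mesenchyme reached 288, 224, 677 and 1328 CPM in gated cells and 512, 4073, 2188 and 4560 CPM in Pdgfra cells. Mesothelial genes reached at most 135 CPM against 19.9 CPM, with 2 to 4 of the 6 markers at 0 in gated cells. The part of these other cells in each result below was not tested beyond the alternatives given there.

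Cdh5, one of the excluded genes, removed most of the barcodes richest in gate genes. Of barcodes with 3 or more gate genes, 72.2%, 79.4%, 49.4% and 75.2% from P7 to P60 had a Cdh5 UMI, and Cdh5 was the single excluded gene in 341, 1560, 2597 and 711 of them. The share with Cdh5 was larger at 7 gate genes than at 3: it went from 41.8% to 91.7% at P7, from 63.4% to 87.9% at P14, from 24.7% to 64.9% at P28 and from 32.0% to 90.7% at P60. It rose at each step between them at P7, P28 and P60, while at P14 it was 68.8% at 2 genes and 62.0% at 4 before it rose. Only the P14 curve was already high below the gate, with 43.3% of barcodes with 0 gate genes carrying Cdh5.

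**Figure D1:**
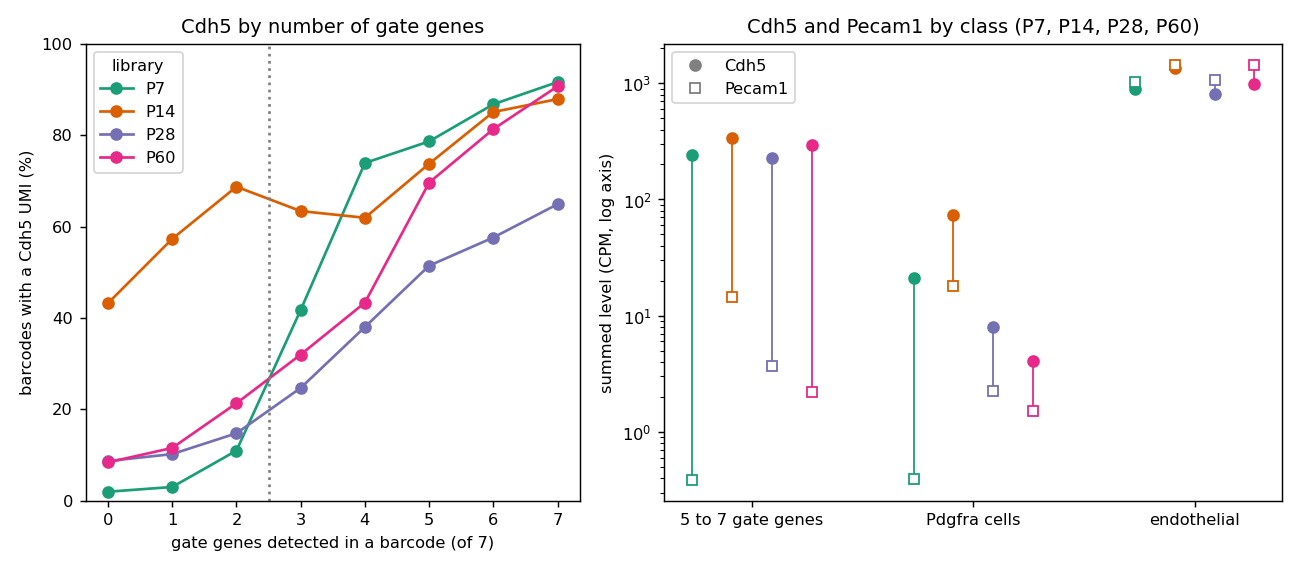
Left, the share of passing barcodes with a Cdh5 UMI (percent) by the number of gate genes detected, 1 line per library; the dotted line marks the gate. Right, summed CPM (log axis) of Cdh5 (filled circles) and Pecam1 (open squares) in cells with 5 to 7 gate genes, in Pdgfra cells and in endothelial cells, in the order P7, P14, P28, P60. Cdh5 lay at 229 to 337 CPM in cells with 5 to 7 gate genes, where Pecam1 stayed at or below 14.4 CPM. Pecam1 was among the genes used to choose these cells and the endothelial cells.

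In cells with 5 to 7 gate genes, whether or not they had Cdh5, and with fewer than 3 of 7 endothelial genes detected, Cdh5 was at 240, 337, 229 and 296 CPM. Pecam1, an adhesion protein of endothelium, was at 0.385, 14.4, 3.67 and 2.19 CPM in the same cells. Endothelial cells of the same libraries had Cdh5 at 899, 1344, 808 and 988 CPM and Pecam1 at 1018, 1443, 1066 and 1425 CPM. Cdh5 thus had 23.5, 62.4 and 135 UMIs per Pecam1 UMI in gate-gene-rich cells at P14, P28 and P60, and 0.932, 0.758 and 0.693 in endothelial cells. Pecam1 is itself among the 7 endothelial genes, and endothelial cells were those with 3 or more of them. Selection therefore lowered Pecam1 in gate-gene-rich cells and raised it in endothelial cells, so the contrast of these ratios is a description. After every cell was thinned to 2000 UMIs, 33.5%, 50.9%, 36.9% and 44.5% of the cells with 5 to 7 gate genes had a Cdh5 UMI. The thinned share was 3.57%, 16.9%, 1.84% and 0.781% in Pdgfra cells taken by the same rule, highest at P14. Their median depths before thinning were 9364, 6624, 7150 and 9992 UMIs, against 8989, 6523, 3886 and 8954 in cells with 5 to 7 gate genes.

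A wider gate was therefore run beside every comparison, chosen after these values were seen: Pecam1 took the place of Cdh5 among the excluded genes, in both classes. It held 440, 1623, 5089 and 898 cells, 8050 in all, with median depths of 8328, 6212, 3491 and 8243 UMIs. Under it Cdh5 was at 214, 322, 199.7 and 271 CPM against 21.4, 75.8, 7.72 and 3.97 CPM in Pdgfra cells, a log2 fold change of 3.85 ± 0.68 (SE, n = 4 libraries; edgeR quasi-likelihood test, Benjamini-Hochberg adjusted p = 0.00981). The call was lost without P28 (edgeR adjusted p = 0.0555) and kept without P7, P14 or P60 (0.0415, 0.00632 and 0.0174). Cdh5 was seen before it was tested, so this is a description of its size.

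The first question was which genes set gated cells apart from the Pdgfra cells of the same library. For each library, the UMIs of either class were added up per gene, and the sums entered an edgeR quasi-likelihood fit with the library as a block and p-values adjusted over 13476 genes by the method of Benjamini and Hochberg. At an adjusted p under 0.05, 1401 genes were higher in gated cells (10.4%) and 1593 were lower (11.8%). The wider gate called 2014 of 14910 genes higher (13.5%) and 2263 lower (15.2%), and it kept 2812 of the 2993 first calls that it could test, with 2 in the opposite direction. Without P28, which held most gated cells, 680 were higher and 704 lower. Without P60 the counts were 1048 and 999. Fold changes are relative to the TMM factors, which lower them by 0.17 (log2) against ratios of CPM.

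Among genes reaching 100 CPM in the higher class, the 12 with the largest fold changes in favour of gated cells were taken by the rule of size. Sfrp5 had the highest level of them, at 461, 1178, 2593 and 1828 CPM from P7 to P60 against 6.16, 61.7, 56.6 and 10.4 CPM in Pdgfra cells (log2 fold change 5.72 ± 0.65 (SE), edgeR adjusted p = 0.00579). Pcp4, a regulator of calmodulin, was at 109, 96.1, 66.7 and 153 CPM against 0.798, 5.97, 1.26 and 0.541 CPM (log2 fold change 6.36 ± 0.55 (SE), edgeR adjusted p = 0.00132). In both genes the lowest gated library lay above the highest Pdgfra library. The share of all tested genes without overlap is not given, so such statements here and below describe the named genes alone. Mpzl2, an adhesion protein of epithelia, was at 54.4, 276, 318 and 185 CPM against 0.228, 10.9, 8.62 and 4.44 CPM (log2 fold change 5.20 ± 0.30 (SE), edgeR adjusted p = 1.14e-05). Perp, a component of desmosomes, was at 34.1, 88.9, 188 and 177 CPM against 0.342, 7.96, 4.57 and 1.79 CPM (log2 fold change 5.50 ± 0.43 (SE), edgeR adjusted p = 0.000329). Gsta4, a glutathione transferase that clears lipid aldehydes, was at 292, 430.4, 248 and 211 CPM against 8.55, 22.9, 8.26 and 5.73 CPM (log2 fold change 4.74 ± 0.18 (SE), edgeR adjusted p = 1.72e-08), the steadiest of the 12 across libraries by its SE. The other members were Cxadr (log2 fold change 5.69), an adhesion receptor at tight junctions, Ntng1 (5.51), a membrane-anchored netrin, Kcnj13 (5.47), a potassium channel, Lmo7 (5.11), Crabp2 (4.58), which binds retinoic acid, Slc6a13 (4.51), a carrier of GABA and taurine, and Wnt6 (4.45). Thinned to 2000 UMIs before gating, the 12 lay between 3.50 and 5.31 and all kept their calls. Without P60 they lay between 4.08 and 5.68, and that library moved Pcp4 to 5.68, Kcnj13 to 4.61 and Ntng1 to 4.68, while without P28 Cxadr was at 6.52 and Kcnj13 at 6.09. Cxadr was not called without P14 (edgeR adjusted p = 0.056), and Ntng1 was not called without P7, P14 or P28 (0.0802, 0.125 and 0.0914) or without the filter on low counts (0.0927).

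**Figure D2:**
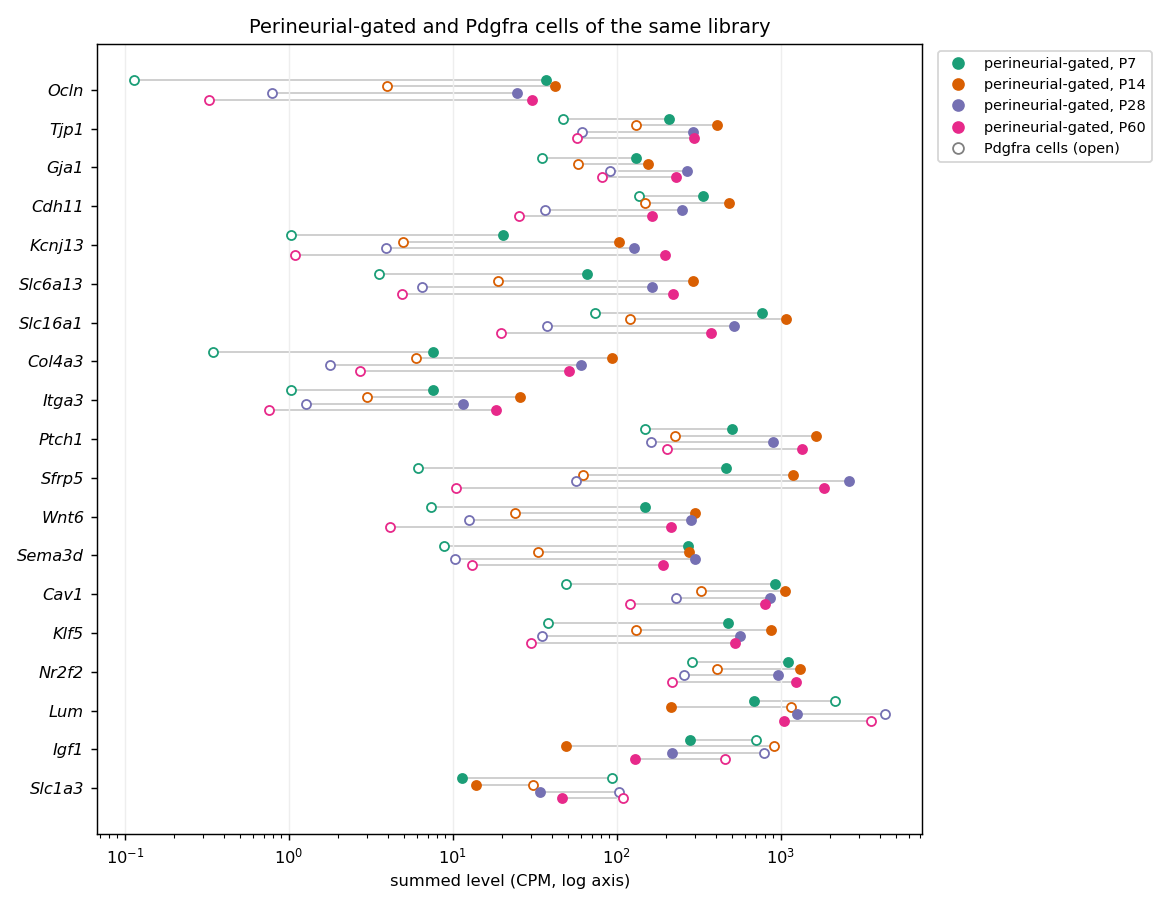
Summed CPM (log axis) of 19 genes in perineurial-gated cells (filled) and Pdgfra cells (open) of the same library; colours are the 4 ages and grey lines join the 2 classes. The first 16 genes lie to the right in gated cells in every library, and Lum, Igf1 and Slc1a3 lie to the left.

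In the opposite direction 12 genes were named by the same rule. Crispld2, a secreted protein of mesenchyme, was at 25.3, 5.66, 186 and 257 CPM against 101, 39.8, 762 and 1136 CPM in Pdgfra cells (log2 fold change -2.35 ± 0.17 (SE), edgeR adjusted p = 1.65e-06). Eln, elastin, was at 20.2, 48.8, 45.4 and 63.0 CPM against 179.8, 331, 135 and 243 CPM (log2 fold change -2.42 ± 0.23 (SE), edgeR adjusted p = 6.13e-05). Dlk1, a Notch-related growth regulator of young mesenchyme, was at 1454, 47.8, 18.8 and 11.4 CPM against 4091, 465, 94.1 and 38.4 CPM (log2 fold change -2.39 ± 0.28 (SE), edgeR adjusted p = 0.00037) and was lower at each later age in both classes. Ace, the angiotensin-converting enzyme, was at 3.79, 5.14, 31.2 and 41.8 CPM against 25.1, 99.4, 169 and 259 CPM (log2 fold change -3.03 ± 0.24 (SE), edgeR adjusted p = 1.61e-05). Lpl (-3.13), Pi16 (-2.82), Htra1 (-2.70), Scara5 (-2.57), Ly6c1 (-2.45), Dpep1 (-2.44), Igf1 (-2.41) and Tent5a (-2.30) completed the 12. In gated cells with no Pdgfra UMI the 12 lay between -5.52 and -2.88, and thinned before gating between -5.45 and -2.94. Without P14 all 12 kept their calls, and 8 did without P7, 6 without P28 and 7 without P60.

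Tight junctions seal perineurial cells to each other. Of 19 list members tested, 9 were higher in gated cells and 5 lower (median log2 fold change 0.29, against -0.01 over all genes). Ocln, a membrane protein of the seal, was at 36.7, 42.2, 24.7 and 30.4 CPM against 0.114, 3.98, 0.789 and 0.325 CPM (log2 fold change 5.42 ± 0.47 (SE), edgeR adjusted p = 9.21e-05). F11r, a junctional adhesion molecule, was at 182, 299, 241 and 212 CPM against 29.5, 44.7, 23.3 and 22.0 CPM (log2 fold change 2.86 ± 0.16 (SE), edgeR adjusted p = 3.09e-07). Tjp1, the scaffold that ties claudins to actin, was at 207, 408, 290.4 and 293 CPM against 46.8, 131, 60.8 and 57.0 CPM (log2 fold change 1.94 ± 0.15 (SE), edgeR adjusted p = 2.22e-06). Gated and Pdgfra libraries did not overlap for these 3 genes, a description with no share over all genes beside it. Cgn (4.48), Magi1 (1.74), Cgnl1 (1.58) and Amotl1 (0.56), further scaffolds of the junction, were also higher, as was Cldn11 (1.90), which stood at 3.79, 3.08, 4.90 and 3.04 CPM. Jam2 (-1.70), Cldn10 (-1.83), Mpdz (-0.75), Magi3 (-0.51) and Jam3 (-0.47) were lower. The call of Cldn11 was lost in the wider gate (edgeR adjusted p = 0.0819) and without P7 or P60 (0.0644 and 0.0844). Mpdz was lost without P28 or P60 (0.209 and 0.109), Magi3 without P28 (0.0917) or against Pdgfra cells with 0 gate genes (0.06), and Jam3 without P7, P28 or P60 (0.0593, 0.18 and 0.271) and under 5 other alternatives, DESeq2 among them (0.0507 to 0.147).

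Adherens junctions and desmosomes had 8 of 15 members higher and 0 lower (median 1.15). Cdh11, a mesenchymal cadherin, was at 335, 480.2, 248 and 163 CPM against 137, 148, 36.2 and 25.4 CPM (log2 fold change 1.95 ± 0.24 (SE), edgeR adjusted p = 0.000646). Jup, plakoglobin, which serves both kinds of junction, was at 125, 249, 251 and 134 CPM against 18.4, 34.8, 23.8 and 20.1 CPM (log2 fold change 2.78 ± 0.16 (SE), edgeR adjusted p = 3.68e-07). Cdh3, P-cadherin, was sparse at 16.4, 11.3, 5.11 and 3.80 CPM but nearly absent from Pdgfra cells (0.228, 0, 0.0526 and 0 CPM; log2 fold change 6.28 ± 0.59 (SE), edgeR adjusted p = 1.14e-05). The catenins Ctnna1 (1.08) and Ctnnb1 (0.81), Afdn (1.15), Pkp4 (1.84) and Nectin2 (1.66) made up the rest. Nectin2 was not called without P28 (edgeR adjusted p = 0.0651).

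Gap junctions pass small molecules between perineurial cells. Of 6 members tested 2 were higher and 1 lower (median -0.26). Gja1 was at 131, 155, 266 and 229 CPM against 34.8, 57.7, 90.4 and 81.4 CPM (log2 fold change 1.42 ± 0.14 (SE), edgeR adjusted p = 1.68e-05). Gjb2 was at 10.1, 139, 81.9 and 81.2 CPM against 0.456, 27.8, 4.63 and 0.920 CPM (log2 fold change 4.10 ± 0.74 (SE), edgeR adjusted p = 0.0285), so that its P7 level lay below the Pdgfra level at P14 while every library was higher in gated cells. Its call was lost without P7 or P28 (edgeR adjusted p = 0.0998 and 0.107) and after thinning (log2 fold change 2.45, 0.0593). Without P14 its log2 fold change was 4.72 and without P60 3.35. Gjc1 was lower (-0.88).

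Carriers, channels and pumps of the barrier were split, with 12 of 29 higher and 11 lower (median -0.02). Kcnj13 was at 20.2, 102, 127 and 195 CPM against 1.03, 4.97, 3.89 and 1.08 CPM (log2 fold change 5.47 ± 0.60 (SE), edgeR adjusted p = 0.00425). Slc6a13 was at 65.7, 289, 164 and 219 CPM against 3.54, 18.9, 6.47 and 4.87 CPM (log2 fold change 4.51 ± 0.23 (SE), edgeR adjusted p = 7.78e-07). Slc16a1, the transporter of lactate and pyruvate, was at 767, 1079, 519 and 377 CPM against 73.4, 119, 37.6 and 19.6 CPM (log2 fold change 3.49 ± 0.18 (SE), edgeR adjusted p = 2.06e-07). For Slc16a1 both classes were lowest at P60, and the gated level stayed above every Pdgfra level. Abcb1a, the drug efflux pump of barriers, was at 1.26, 50.4, 130.2 and 102 CPM against 0, 11.9, 4.89 and 5.79 CPM (log2 fold change 3.94 ± 0.39 (SE), edgeR adjusted p = 0.000475), with 1 UMI in the gated cells of P7. Slco2a1 (4.45), a prostaglandin carrier, Slc6a6 (2.60), a taurine carrier, Atp1b3 (1.65), Abcg2 (1.56), Slc4a4 (1.36), Slc12a2 (1.21) and Slc38a2 (0.92) were also higher. Among the lower ones were Slc1a3 (-1.81), a glutamate carrier that stood at 11.4, 13.9, 33.9 and 46.3 CPM against 93.1, 30.8, 102 and 109 CPM, Abca8a (-1.76) and Slc7a11 (-2.35). Enzymes of glycolysis had 7 of 15 members higher and 1 lower (median 0.51), by small amounts: Eno1 was at 101, 106, 101 and 148 CPM against 32.3, 53.7, 43.6 and 50.6 CPM (log2 fold change 1.18 ± 0.14 (SE), edgeR adjusted p = 7.1e-05), and Pkm was at 216, 263, 279 and 255 CPM against 99.4, 130.3, 144 and 142 CPM (log2 fold change 0.81 ± 0.13 (SE), edgeR adjusted p = 0.00072).

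Basement membrane components were 9 of 20 higher and 6 lower (median 0.34), and the 2 directions fell on different chains. Col4a3, a type IV collagen chain of specialised membranes, was at 7.59, 93.6, 60.1 and 50.9 CPM against 0.342, 5.97, 1.79 and 2.70 CPM (log2 fold change 4.36 ± 0.23 (SE), edgeR adjusted p = 2.06e-07), and its partner Col4a4 was at 93.6, 305, 161 and 126 CPM against 27.3, 34.8, 33.8 and 40.6 CPM (log2 fold change 1.98 ± 0.24 (SE), edgeR adjusted p = 0.000505). The broadly expressed chain Col4a1 was at 1052, 1977, 887 and 679.5 CPM against 501, 1013, 894 and 650.1 CPM and was not called (log2 fold change 0.35 ± 0.22 (SE), edgeR adjusted p = 0.317). The laminin chains Lamb3 (3.71), Lama5 (2.96), Lamb2 (0.83) and Lama4 (0.48), with Agrn (0.80) and Nid2 (0.73), were higher. Lama2 (-1.09), Lamb1 (-0.93), Hspg2 (-0.88), Ntn4 (-1.10), Col18a1 (-0.93) and Col15a1 (-2.22) were lower. Col15a1 stood at 289.5, 169.7, 980.2 and 775 CPM against 1252, 1253, 3601 and 2040 CPM (log2 fold change -2.22 ± 0.21 (SE), edgeR adjusted p = 1.72e-05). Within gated cells, group 2 of the clustering given further on had Col15a1 at 3289 CPM at P28 and 2074 CPM at P60. Groups 4, 5 and 6 had it at 66.2, 70.0 and 80.7 CPM at P28 and at 19.4, 33.3 and 11.6 CPM at P60.

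Receptors for these membranes had the largest share of higher members of any list, 10 of 17, with 2 lower (median 1.24). Itga7, a laminin-binding integrin, was at 60.7, 293, 343 and 156 CPM against 4.68, 30.8, 15.4 and 2.92 CPM (log2 fold change 4.21 ± 0.42 (SE), edgeR adjusted p = 0.0017). Itga1, a collagen-binding integrin, was at 398, 398, 249 and 229 CPM against 75.3, 113, 42.7 and 30.0 CPM (log2 fold change 2.27 ± 0.17 (SE), edgeR adjusted p = 1.84e-06). Itga6, the partner of the gate gene Itgb4 in hemidesmosomes, was at 312, 795, 842 and 572 CPM against 41.2, 85.5, 33.5 and 3.95 CPM. Itga6 was not called (log2 fold change 4.23 ± 0.96 (SE), edgeR adjusted p = 0.0633). In the wider gate its log2 fold change was 4.38 (edgeR adjusted p = 0.0144). Bcam (3.51), Itga3 (3.33), Sgcd (2.25), Ddr1 (1.35), Utrn (1.31), Plec (1.24), Cd151 (1.09) and Dag1 (0.45) were higher, and Sgce (-0.63) and Sgcb (-0.40) were lower. The call of Bcam was lost without P7, P28 or P60 (edgeR adjusted p = 0.11, 0.103 and 0.0608) or without the filter on low counts (0.104). That of Sgcb was lost without each of the same libraries (edgeR adjusted p = 0.0617, 0.2 and 0.203) and under 5 other alternatives, DESeq2 among them (0.0549 to 0.124).

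Collagens and proteoglycans of loose matrix ran the other way, with 2 of 24 higher and 13 lower (median -1.10). Col1a1 was at 20467, 9025, 5353 and 3191 CPM against 28489, 28805, 14174 and 9388 CPM (log2 fold change -1.45 ± 0.23 (SE), edgeR adjusted p = 0.00055), and within gated cells it was lower at each later age. Lum was at 681, 215, 1257 and 1040 CPM against 2142, 1150, 4305 and 3539 CPM (log2 fold change -2.07 ± 0.17 (SE), edgeR adjusted p = 4.72e-06). Col12a1 (0.97) and Mfap5 (0.86) were the higher members. Mfap5 was not called without P28 (edgeR adjusted p = 0.0686).

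**Figure D3:**
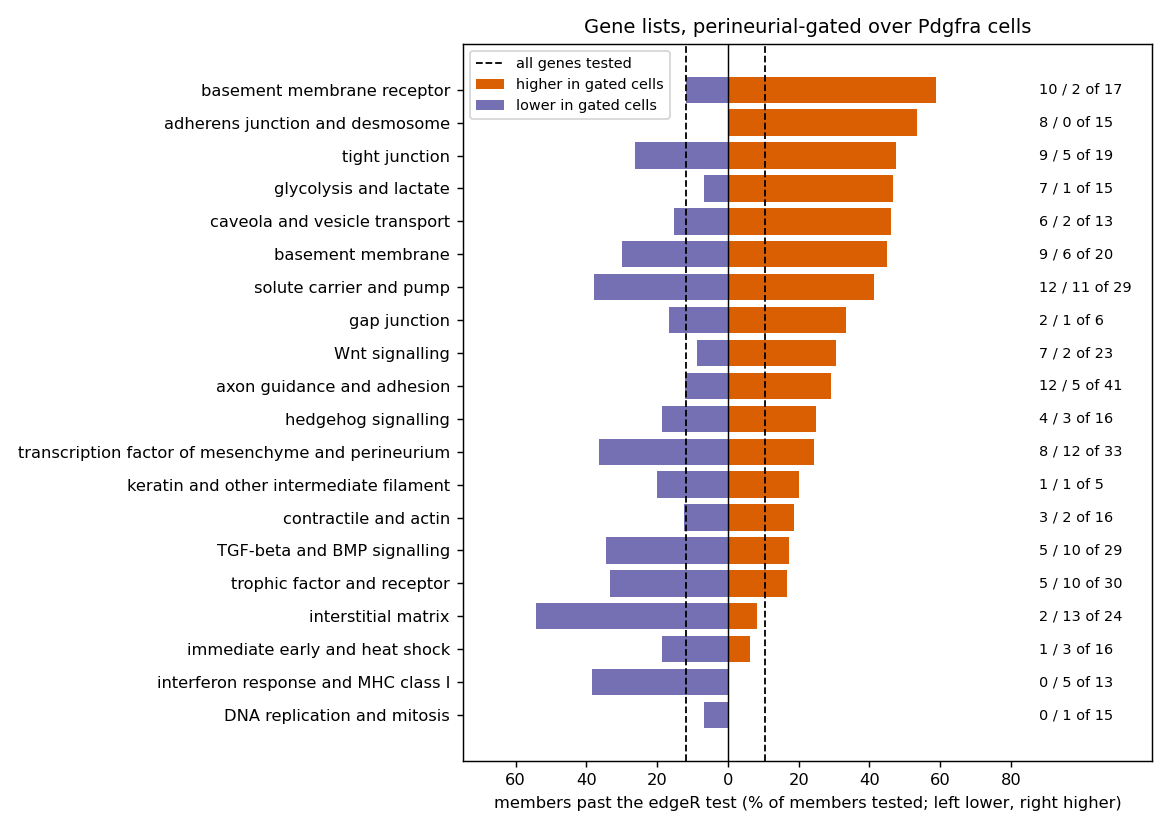
Percent of the tested members of each of 20 gene lists that passed the edgeR test, higher in gated cells to the right and lower to the left, with counts at the right edge. Dashed lines mark the shares over all genes tested, 10.4% and 11.8%. Basement membrane receptors and adherens junctions had 10 of 17 and 8 of 15 members higher, and interstitial matrix had 13 of 24 lower.

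Hedgehog components had 4 of 16 members higher and 3 lower (median -0.17). Ptch1, the receptor that is also a target gene of the pathway, was at 501, 1637, 895 and 1341 CPM against 147, 227, 162 and 201 CPM (log2 fold change 2.29 ± 0.19 (SE), edgeR adjusted p = 4.37e-06), with every gated library above every Pdgfra library. Gli1, the transcription factor that is induced by the pathway, was at 27.8, 133, 101 and 131 CPM against 33.8, 42.8, 35.1 and 35.6 CPM, lower in gated cells at P7 and higher at the other ages (log2 fold change 1.15 ± 0.32 (SE), edgeR adjusted p = 0.0511). The wider gate called it (log2 fold change 1.24, edgeR adjusted p = 0.00369). Boc (1.15), a co-receptor, and Smo (0.48) were also higher, and Gli3 (-0.81), Evc (-0.55) and Osr1 (-3.12) lower. The ligand Dhh was at 15.2, 4.11, 6.03 and 1.52 CPM against 17.6, 4.97, 3.26 and 0.703 CPM and was not called (log2 fold change 0.22 ± 0.33 (SE), edgeR adjusted p = 0.705), with Schwann genes at the levels given above in both classes. The Smo call was lost without P28 or P60 (edgeR adjusted p = 0.111 and 0.143) or after thinning (0.0513), Boc and Gli3 without P28 (0.0917 and 0.0987), and Evc without P14, P28 or P60 (0.101, 0.231 and 0.146). Against Pdgfra cells with 0 gate genes Boc (log2 fold change 0.48, edgeR adjusted p = 0.164) and Smo (0.0509) were not called, and Evc was not called under DESeq2 (adjusted p = 0.112), with called doublets removed (0.0528) or after thinning (0.176). Without P28 the log2 fold change of Osr1 was -3.86.

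Wnt components had 7 of 23 members higher and 2 lower (median -0.06), and 8 higher and 7 lower of 26 in the wider gate. Beside Sfrp5, the ligand Wnt6 was at 149, 298, 284 and 214 CPM against 7.30, 23.9, 12.5 and 4.11 CPM (log2 fold change 4.45 ± 0.29 (SE), edgeR adjusted p = 3.22e-05). Rspo1, which strengthens Wnt signals, was at 134, 108, 80.4 and 59.2 CPM against 6.16, 19.9, 6.78 and 7.30 CPM (log2 fold change 3.27 ± 0.29 (SE), edgeR adjusted p = 0.000162). The receptors Fzd2 (1.69), Fzd7 (1.60) and Fzd1 (1.56) and the ligand Wnt2b (3.19) were higher, and the inhibitor Dkk2 (-2.88) and Nkd1 (-0.66) lower. The Nkd1 call was lost in the wider gate and without P7, P28 or P60 (edgeR adjusted p = 0.0687, 0.0532, 0.211 and 0.198). TGF-beta and BMP components had 5 of 29 higher and 10 lower (median -0.26). Bmp6 was at 49.3, 71.0, 59.3 and 51.6 CPM against 5.36, 13.9, 5.89 and 9.14 CPM (log2 fold change 2.73 ± 0.20 (SE), edgeR adjusted p = 1.65e-06), and Fst, which binds activins, at 6.32, 15.9, 7.15 and 28.9 CPM against 11.5, 130.3, 28.1 and 141 CPM (log2 fold change -2.46 ± 0.22 (SE), edgeR adjusted p = 1.68e-05); the Fst call was lost with called doublets removed (edgeR adjusted p = 0.0619). Trophic factors and receptors had 5 of 30 higher and 10 lower (median -0.41), with Igf1 and Fgf10 (-3.45) among the lower.

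Guidance and adhesion genes had 12 of 41 members higher and 5 lower (median 0.17), and 14 higher and 9 lower of 44 in the wider gate. Ntng1 was at 173, 486, 457 and 692 CPM against 9.35, 22.9, 9.20 and 1.95 CPM (log2 fold change 5.51 ± 0.97 (SE), edgeR adjusted p = 0.035). Sema3d, a secreted repellent, was at 269, 277, 299 and 189.8 CPM against 8.78, 32.8, 10.4 and 13.1 CPM (log2 fold change 4.08 ± 0.34 (SE), edgeR adjusted p = 0.000292). Efnb3, an ephrin, was at 36.7, 121, 113 and 103 CPM against 6.73, 12.9, 7.41 and 2.43 CPM (log2 fold change 3.73 ± 0.50 (SE), edgeR adjusted p = 0.00756); its call was lost without P14 or P28 (edgeR adjusted p = 0.064 and 0.053). Slit3, also a secreted repellent, was lower (3.79, 6.17, 10.2 and 16.7 CPM against 22.0, 57.7, 41.5 and 80.8 CPM; log2 fold change -2.54 ± 0.20 (SE), edgeR adjusted p = 2.46e-06).

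Caveolae, membrane pits that are dense in perineurial cells, had 6 of 13 members higher and 2 lower (median 0.24). Cav2 was at 80.9, 147, 187 and 258 CPM against 16.2, 37.8, 43.1 and 42.1 CPM (log2 fold change 2.10 ± 0.14 (SE), edgeR adjusted p = 1.25e-06) and Cavin2 at 341, 486, 366 and 371 CPM against 21.2, 122, 33.9 and 25.5 CPM (log2 fold change 3.18 ± 0.35 (SE), edgeR adjusted p = 0.00157). Cav1 was at 915, 1060, 861 and 795 CPM against 49.2, 325, 229.6 and 119 CPM (log2 fold change 2.44 ± 0.51 (SE), edgeR adjusted p = 0.0353), and its call was lost without P14, P28 or P60 (edgeR adjusted p = 0.0795, 0.0758 and 0.171). Actin and contractile genes had 3 of 16 higher and 2 lower (median -0.02). Tagln was at 496, 169, 216 and 973 CPM against 98.0, 98.4, 50.7 and 66.3 CPM and was not called (log2 fold change 2.15 ± 0.55 (SE), edgeR adjusted p = 0.0641).

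Transcription factors of mesenchyme had 8 of 33 members higher and 12 lower (median -0.21). Klf5 was at 473, 875, 565 and 521 CPM against 38.0, 130.3, 34.9 and 29.7 CPM (log2 fold change 3.49 ± 0.21 (SE), edgeR adjusted p = 1.86e-06), and Nr2f2 at 1106, 1311, 957 and 1233 CPM against 286, 406, 256 and 216 CPM (log2 fold change 1.85 ± 0.16 (SE), edgeR adjusted p = 6.37e-06). The forkhead factors Foxc2 (1.28), Foxc1 (1.17), Foxp2 (0.95) and Foxd1 (0.85), with Runx1 (1.15) and Meox2 (0.63), were higher. Prrx2 (-1.85), Snai2 (-1.64), Twist2 (-1.47), Osr2 (-1.31) and Ebf1 (-1.25) were lower. Replication genes had 0 higher and 1 lower of 15, interferon and MHC class I genes 0 and 5 of 13, immediate early and heat shock genes 1 and 3 of 16, and keratins and other filaments 1 and 1 of 5.

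The second question was how gated cells differed between ages. With 1 library per age there is no replicate check, and genes were compared between P14 and P60, the youngest and oldest ages of 1 software generation, by a rule of size. Of 7560 genes at 20 CPM or more at either age, 315 were at least 2-fold higher at P60 (4.17%) and 393 at least 2-fold lower (5.20%), so 44.5% of both were higher. Scaling by the median of ratios, which moved all genes by 0.12 (log2), gave 391 and 289 (57.5% higher), and ratios taken to the Pdgfra cells of the same library gave 471 and 204 (69.8%). Between P28 and P60, the pair in which both lacked Xist, 92 were higher and 242 lower.

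On the lower side, 10 genes were named by size, of which Xist had the lowest P60 over P14 ratio. Fbn2, a fibrillin of young tissue, was at 516, 286, 89.6 and 18.2 CPM from P7 to P60, a P60 over P14 ratio of 0.0636 (0.0404 to 0.0957). It was at 555, 296, 70.9 and 19.0 CPM in the wider gate and 512, 282, 54.1 and 13.0 CPM in gated cells with 5 to 7 gate genes, so the order of ages was the same in all 3 selections, and Pdgfra cells were at 515, 149, 114 and 19.7 CPM. Col6a3 was at 1248, 1407, 815 and 342 CPM, a P60 over P14 ratio of 0.243 (0.220 to 0.269), and at 1183, 1511, 808 and 339 CPM in the wider gate. In Pdgfra cells Col6a3 was at 1484, 1439, 906 and 551 CPM, also lower at each later age. Col4a2 was at 747, 1548, 567 and 367 CPM, highest at P14, a P60 over P14 ratio of 0.237 (0.215 to 0.261). In Pdgfra cells Col4a2 was at 401, 727, 594 and 349 CPM, also highest at P14. In the wider gate Col4a2 was at 1066, 1779, 598 and 559 CPM and Col4a1 at 1485, 2396, 964 and 1069 CPM, so P28 and P60 lay close together there while P14 stayed highest. Col6a5, a further collagen, was at 154, 902, 323 and 122 CPM in gated cells and at 228, 836, 379 and 322 CPM in the wider gate. Pdgfra cells were at 9.69, 353, 33.0 and 8.66 CPM, so that relative to them the P60 over P14 log2 ratio of Col6a5 turned to 2.47. The others named by size were Adamts9, Tnnt2, Slc22a3, the hemoglobin gene Hbb-bs and Fabp4, a gene of fat and capillary cells, and taken relative to Pdgfra cells these 5 also turned positive (log2 ratios of 0.42 to 4.99). Erythroid genes summed to 176 CPM at P14 and 15.2 CPM at P60 in gated cells, and their part in the Hbb-bs value was not tested.

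Of 20 basement membrane genes measured, 14 were lower at P28 than at P14 and lower again at P60 in gated cells, where 29.2% of all genes showed this order. Among cells with 5 to 7 gate genes it was 15 of 20 (all genes 25.9%), and in the wider gate 9 of 20 (26.7%). Pdgfra cells were not counted in this way, so whether they share this order was not tested. Between P14 and P60 alone, 7 of the 20 were at least 2-fold lower and 3 at least 2-fold higher in gated cells (median log2 ratio -0.76, against -0.13 over all genes). Glycolysis genes showed the reverse order in 2 of 14 gated (15.8% of all genes), 8 of 14 with 5 to 7 gate genes (15.1%) and 10 of 14 in the wider gate (14.6%), so that this count moved with the selection of cells.

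**Figure D4:**
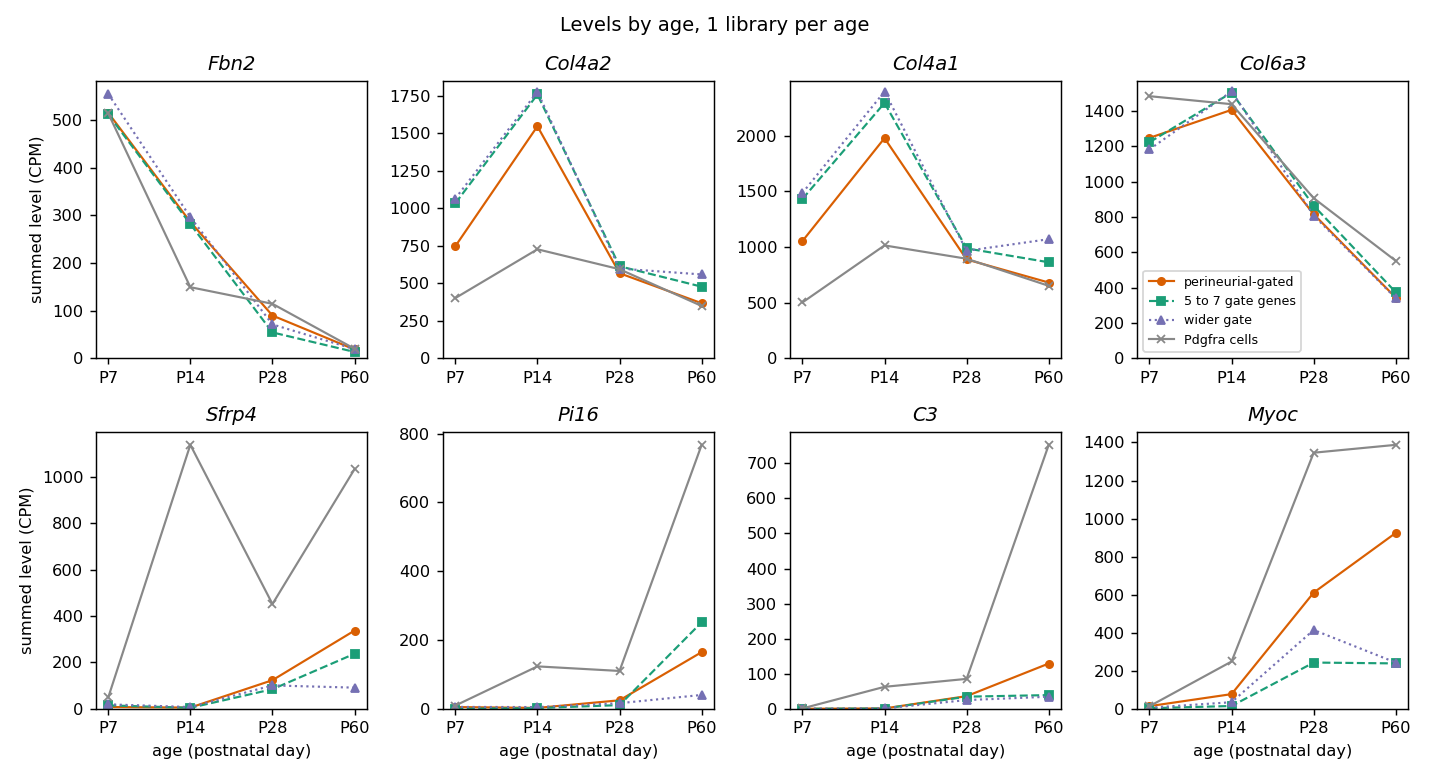
Summed CPM (linear axes from 0) of 8 genes by age, 1 library per age, in perineurial-gated cells, gated cells with 5 to 7 gate genes, the wider gate and Pdgfra cells. The 4 matrix genes above follow 1 course in all 3 perineurial selections up to P28, while Sfrp4, C3 and Myoc below are highest in Pdgfra cells from P14 on and lie lower at P60 in the wider gate than in the gate.

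Of the 10 genes named by size as highest at P60 relative to P14, several rested on a few cells. Myoc, myocilin, was at 13.9, 77.1, 611 and 925 CPM, a P60 over P14 ratio of 12.0 (10.1 to 14.3), but at 5.64, 34.5, 414 and 243 CPM in the wider gate and at 13.5, 249, 1346 and 1388 CPM in Pdgfra cells. Sfrp4, a secreted Wnt antagonist of fibroblasts, was at 7.59, 5.14, 123 and 337 CPM, a P60 over P14 ratio of 65.6 (35.3 to 138), and C3, complement, at 0, 1.03, 36.0 and 129 CPM, a P60 over P14 ratio of 126 (34.2 to 1045). At P60 Sfrp4 was at 91.1 CPM in the wider gate and 1033 in Pdgfra cells, and C3 at 34.4 and 753 CPM. Sfrp2 had 0 UMIs at P14, which allows up to 1.54 CPM, and was at 168 CPM at P60, at least 109-fold higher. Of its 221 UMIs at P60, 219 lay in 4 of the 221 gated cells, the P60 cells of a small group (group 7 of the clustering given further on), and without those cells it was at 1.62 CPM. The same 4 cells held 96.2% of the UMIs of Sfrp4, 95.4% of Pi16, 86.9% of Ly6a and 82.4% of C3, which without them were at 13.7, 8.09, 26.7 and 24.3 CPM. Crispld2, Cxcl1, Scara5, Cst6 and Myoc had 0% to 20.8% of their UMIs there, and without the 4 cells were at 261, 149, 151, 142 and 806 CPM. In P60 gated cells with 3 or 4 gate genes they were at 505, 285, 352, 254 and 1683.5 CPM. With 5 to 7 gate genes they were at 31.8, 8.68, 23.1, 23.1 and 239 CPM. Group 2 of the same clustering, led by Cst6, held 8.16% of gated cells at P14 and 20.8% at P60. At P60 Cst6 was at 357 CPM in group 2 and at 0, 6.66 and 5.80 CPM in groups 4, 5 and 6. At P14 it was at 69.2 CPM in group 2 and at 3.86, 3.08 and 4.08 CPM in groups 4, 5 and 6. Cst6 took part in the clustering, so these levels are a description. The part of group 2 in the values of Crispld2, Cxcl1, Scara5 and Myoc was not tested. Sfrp2 was at 31.9 CPM in the wider gate at P60 and at 392 CPM in Pdgfra cells. Pi16, Crispld2, Cxcl1, Ly6a, Scara5 and Cst6 were the others named by size, and all 10 were higher in Pdgfra than in gated cells at P60. Between P28 and P60 in the wider gate 7 of the 10 had a ratio below 1. By the number of gate genes, from 3 to 7, Sfrp2 at P60 was at 369, 0, 7.64, 125 and 12.8 CPM. Pi16 was at 90.2, 0, 7.64, 526 and 4.28 CPM and Sfrp4 at 579, 26.9, 15.3, 76.5 and 586 CPM. Most UMIs of these 3 genes lay in the 4 cells above. Crispld2, Cxcl1, Scara5, Cst6 and Myoc were highest at 3 gate genes, at 644, 350, 443, 306 and 2095.5 CPM. Genes of epineurial mesenchyme summed to 224 CPM at P14 and 1328 CPM at P60 in gated cells and to 214 and 413 CPM in the wider gate, and their part in these values was not tested.

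Clustering the gated cells, with the gate genes left out and each library centred, gave 7 groups, described here without tests because every gene took part. Groups 4, 5 and 6 held 786, 911 and 800 cells, with medians of 6, 6 and 5 gate genes, and each held cells of all 4 ages. The share of a library's gated cells in group 4 was 33.7%, 24.2%, 23.1% and 23.1% from P7 to P60, in group 5 15.8%, 19.6%, 29.3% and 21.3%, and in group 6 21.8%, 31.1%, 22.9% and 24.4%. The others carried genes of other cells or low depth. Group 1 (348 cells, median 1034 UMIs) was led by hemoglobin and MHC class II genes. Group 2 (383 cells, a Pdgfra UMI in 92.7%) was led by Cst6, Angptl7 and Col15a1. Group 3 (86) was led by genes that include Myh11 and Rgs5, and group 7 (27) by Sfrp2, Cilp and Pi16. Gate genes summed to 889 CPM in group 2, at a median of 8971 UMIs. In groups 4, 5 and 6 they summed to 5398, 6388 and 3626.5 CPM. The part of group 2 in the gated sums was not tested.

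Group 4 was led by Col6a5, Npnt, Col12a1, Hcn4 and Tagln, group 5 by Inhbb, Acer3 and Ntng1, and group 6 by Ltbp2, Gjb2, Aldh1a3 and Slc6a13, among others. Col6a5 was at 1446 CPM in group 4 and 88.3 in all other gated cells, and Aldh1a3, an enzyme that makes retinoic acid, was at 1096 CPM in group 6 against 101. Ptch1 and Sfrp5 took opposite sides between groups 4 and 6. Ptch1 was at 262, 436, 242 and 519 CPM in group 4 from P7 to P60 and at 1217, 2560, 2583 and 3324 CPM in group 6, with 1768, 581 and 1346 CPM in group 5 at P14, P28 and P60 (under 20 cells at P7). Gli1 was at 20.8, 67.5, 80.9 and 126 CPM and 54.4, 177, 179 and 226 CPM in groups 4 and 6. Sfrp5 ran the other way, at 758, 2495, 5606 and 5907 CPM in group 4 and 578, 529.9, 679 and 1267 CPM in group 6. Slc16a1 was at 1520, 2277, 987 and 888 CPM and 714, 558, 232 and 296 CPM, and Cdh11 at 533, 928, 524 and 383 CPM and 265, 254, 105 and 119 CPM. At every age Ptch1 and Gli1 were higher in group 6 and Sfrp5, Slc16a1 and Cdh11 higher in group 4. Other genes of both pathways did not share these sides: Boc was at 75.0, 73.3, 71.2 and 72.8 CPM in group 4 and 20.4, 38.0, 43.6 and 58.0 CPM in group 6, Smo at 112, 179, 141 and 141 CPM and 177, 182, 134 and 133 CPM, and Wnt6 at 171, 305, 403 and 335 CPM and 272, 356, 330.2 and 371 CPM. Among the gate genes, Msln was at 212, 874, 779 and 854 CPM in group 4 and 47.6, 144, 151 and 107 CPM in group 6, and Tenm2 at 175, 544, 610.1 and 529 CPM and 483, 893, 1073 and 1030 CPM.

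Ptch1 and Sfrp5 carry this opposite pattern, so the 250 bases before their RefSeq starts are shown (build GRCm38.p6, 5′ to 3′ on the gene's strand), with GC boxes in capitals. The Ptch1 window is chr13:63565736-63565985, minus strand, before the first exon of 1 transcript and within an intron of longer ones. The Sfrp5 window is chr19:42202253-42202502, minus strand, upstream of the gene.
Ptch1: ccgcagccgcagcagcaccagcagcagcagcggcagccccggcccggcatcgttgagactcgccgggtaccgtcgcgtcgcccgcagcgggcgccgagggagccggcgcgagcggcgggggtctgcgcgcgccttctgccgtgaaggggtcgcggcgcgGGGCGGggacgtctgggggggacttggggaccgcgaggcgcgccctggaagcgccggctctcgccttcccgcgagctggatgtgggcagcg
Sfrp5: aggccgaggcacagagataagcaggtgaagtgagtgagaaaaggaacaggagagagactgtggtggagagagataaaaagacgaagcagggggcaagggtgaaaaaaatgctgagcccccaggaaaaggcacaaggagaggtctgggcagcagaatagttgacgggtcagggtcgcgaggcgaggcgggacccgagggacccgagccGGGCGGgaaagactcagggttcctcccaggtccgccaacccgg
Each window held 1 GC box (GGGCGG, read on both strands), and 32.7% of 32851 windows of the same length held at least 1. The letters TGGGTGGTC, a site bound by Gli factors, were in neither window on either strand and in 0.225% of all windows. The Ptch1 window was 78.4% G or C and the Sfrp5 window 59.6%.

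The same division was looked for in cells that had not been clustered: those of the wider gate with a Cdh5 UMI, which the gate leaves out. They were split by 2 sets of genes taken from the groups after their values were seen, Col6a5, Hcn4 and Npnt (first set) and Aldh1a3 and Gjb2 (second set). Cells with UMIs of the first set alone numbered 171, 546, 1135 and 277 of 339, 1266, 2508 and 681, and cells with the second set alone 57, 357, 670 and 239. Ptch1 was at 421, 727, 324 and 384 CPM in first-set cells and at 1321, 2404, 2290.0 and 2903 CPM in second-set cells. Sfrp5 was at 869, 2464, 5546 and 6740.0 CPM against 383, 666, 847 and 1717 CPM. Gli1 was at 40.6, 105, 95.8 and 87.2 CPM against 90.4, 160.1, 154 and 186 CPM, and Slc16a1 at 1526, 2032, 958 and 1182 CPM against 629, 670.0, 272 and 419 CPM. Each of these genes took the side it had in the groups at all 4 ages, in cells that the clustering had not used but of the same libraries. Cells with neither set numbered 87, 233, 433 and 106. They had Ptch1 at 983, 1917, 1141 and 1784 CPM and Sfrp5 at 683, 1332, 3196 and 3195.5 CPM. Both genes thus lay between first-set and second-set cells in every library. Whether the difference is a division or graded was not tested. Cells with both sets (24, 130, 270 and 59) had Ptch1 at 944, 1800, 1200.1 and 1900.2 CPM, between first-set and second-set cells in every library. Their median depth was 9868, 8032, 5992 and 15810 UMIs against 9084, 6111, 3904 and 7187 in first-set cells and 8327, 7175, 5386 and 11477 in second-set cells, and whether they are single cells was not tested.

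**Figure D5:**
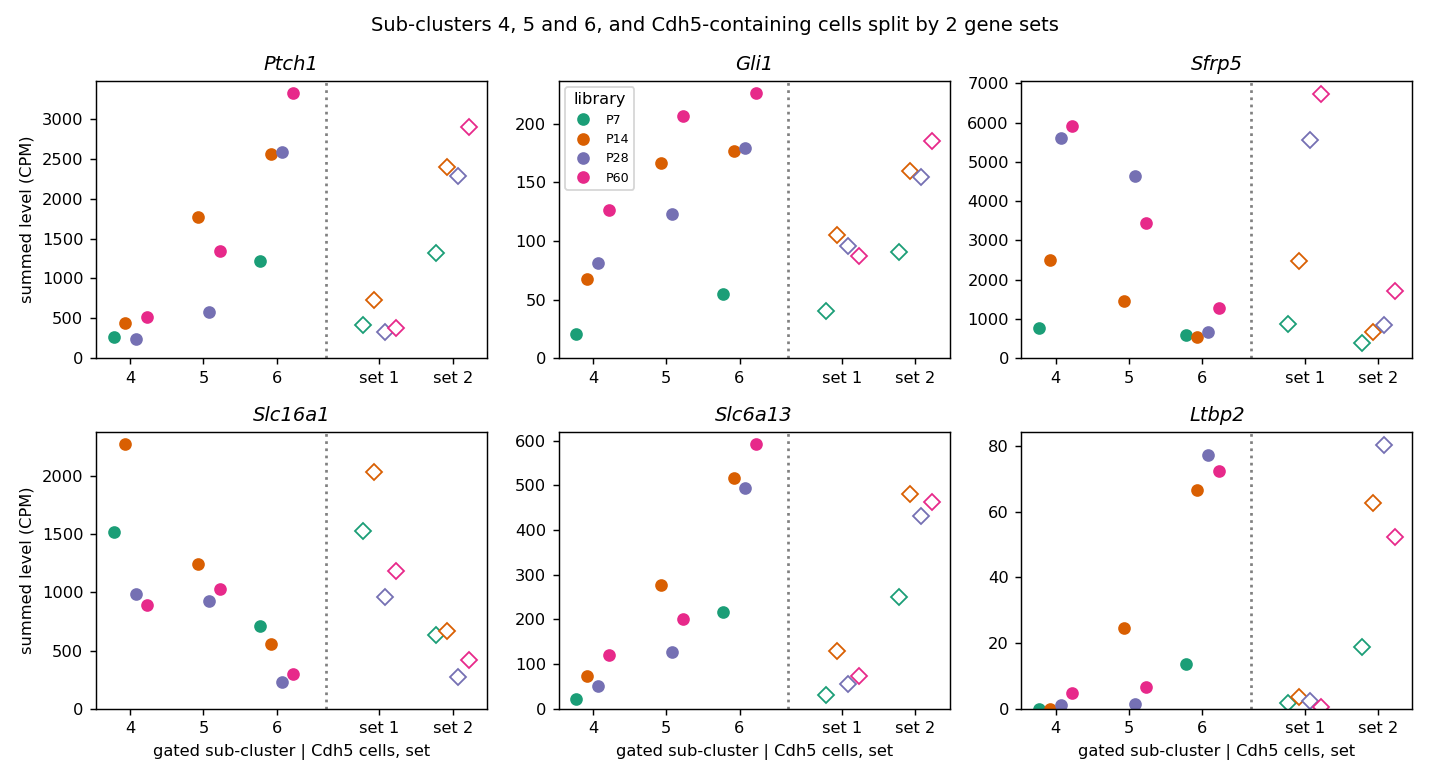
Summed CPM (linear axes from 0) of 6 genes in groups 4, 5 and 6 of the gated cells (filled circles, groups with 20 or more cells in a library) and, right of the dotted line, in cells with a Cdh5 UMI carrying the first or the second gene set alone (open diamonds). Colours are the 4 libraries. Ptch1, Gli1, Slc6a13 and Ltbp2 are higher in group 6 and the second set, and Sfrp5 and Slc16a1 in group 4 and the first set.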

How the data were processed

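The authors deposited UMI counts per gene and barcode for each library, restricted to called cells, made with Cell Ranger per the file headers (7.0.0 at P7, 5.0.1 at P14, P28 and P60). The submitters' processing notes name Seurat and the build mm9. Not given in the sources used here were aligner settings, annotation release and intron counting, so counts on overlapping or near-identical genes are uncertain. Each age is 1 library with no replicate, and the P0 and ganglion libraries enter only the total of passing barcodes.

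Genes were matched by Ensembl identifier (52081 shared by both gene lists). Barcodes with at least 500 UMIs, 300 genes and a mitochondrial share of at most 20% were kept. The gate, the members and the gene lists were chosen with earlier results of these data known. Of 481 genes in 20 lists, 480 were matched; list members that failed edgeR's filterByExpr were not tested, and counts cover the tested members. Doublets were scored with Scrublet in scanpy 1.11.5 and not removed, which marked 1, 5, 126 and 7 gated cells.

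UMI sums per library and class were tested with edgeR 4.0.16 in R 4.3.3 (TMM, robust quasi-likelihood, two-sided, Benjamini-Hochberg, adjusted p under 0.05). The library was the block, because its 2 sums share animals and run. The 7 gate genes, the 3 excluded genes and Pdgfra stayed in the fit and were neither tested nor counted. SE is the size of the log2 fold change divided by the square root of F. On simulated sums with 200 changed genes the fit recovered 78 of 104 at 2-fold and 96 of 96 at 4-fold, with 6 other calls among 13624 genes. Levels are CPM of the summed UMIs; shares carry exact Clopper-Pearson intervals and ratios exact conditional intervals at 95%, and 0 UMIs is taken to allow 3. Groups of gated cells came from the Leiden algorithm (2000 variable genes, 30 components, 15 neighbours, resolution 0.5).

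Genes were named by rule: the 12 largest fold changes in each direction, called and alike in all 4 libraries, at 100 CPM or more; the 10 largest P60 over P14 ratios each way with P28 between; in each list up to 6 called members each way and members needed for their known role; and leading genes of the groups. Some genes that the rule covers are not reported here; counts include them. The alternatives were DESeq2 1.42.0, other scaling and filters, other gates and depths, and leaving out each library. The wider gate, the gate of 5 genes, P60 over P28 and leaving out group 7 were chosen after the data were seen.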

Additional observations from a re-analysis of the deposited data

How the results depend on the processing

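The counts of genes higher and lower in gated than in Pdgfra cells stayed within 1.5 times of 1401 and 1593 under DESeq2, median-of-ratios factors, no low-count filter, at least 4 gate genes, doublet removal, thinning, the strict filter, both other definitions of Pdgfra cells, gated cells without Pdgfra and the wider gate. Fitted with no replicate block, which ignores that both sums of a library are paired, 626 were higher and 332 lower. Leaving out 1 library gave 680 to 1564 higher and 704 to 1624 lower. Of 169 named or listed genes called, 164 kept their call in the wider gate, 140 without P60, 150 without P7 and 159 without P14. With no replicate block 90 kept it. Without P28, 118 kept it and 41 lost it, and the rest were not tested there. Erbb3, a neuregulin receptor called higher at 0.76, turned to -0.023 after thinning and to -0.25 in the wider gate.

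For P60 over P14, a minimum of 50 CPM left 171 higher and 183 lower, the wider gate 205 and 249, P60 over P28 92 and 242, and ratios to Pdgfra cells 204 lower. Relative to Pdgfra cells the log2 ratio turned positive for Hbb-bs (4.99), Fabp4 (1.22), Tnnt2 (2.72), Col6a5 (2.47), Adamts9 (0.42) and Slc22a3 (2.66), because the Pdgfra level fell by a larger factor from P14 to P60. Leaving out the cells of group 7 gave 296 and 402. The number of gated cells also moved. At least 4 gate genes left 65 at P7, thinning gave 181 at P7, 803 at P14 and 461 at P60, and the wider gate 440, 1623, 5089 and 898. Resolution 1 gave 10 groups in place of 7.

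Depth limits the gated sums most at P7 (101 cells) and P60 (221 cells). Of the strict filter, doublet removal and at least 4 gate genes, none turned a named direction.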
